A study of Mus musculus with 30 samples.

Results

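The 8 genes Srebf2, Insig1, Hmgcs1, Idi1, Fdps, Sqle, Lss and Cyp51 were followed in the mouse ventral prostate (VP) by RNAseq. They were taken by symbol and are 8 of the 39179 Ensembl gene identifiers counted. The VP of 30 male C57/BL6 mice was sequenced, 1 library per mouse and 5 mice in each of 6 groups. The mice were fed from weaning on normolipidic diets that differed in their lipid source, and the comparisons ask how that source and the time on the diet bear on gene expression in the gland. The LO groups received linseed oil for 12 or 32 weeks, the SO groups soybean oil for 12 or 32 weeks, and the PF groups lard (pork fat) for 12 or 32 weeks.

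Cholesterol is built from acetyl-CoA through mevalonate, farnesyl diphosphate, squalene and lanosterol. The transcription factor SREBP2, encoded by Srebf2, is held in the membrane of the endoplasmic reticulum while sterols are plentiful, and is cleaved and moved to the nucleus when they fall, where it activates the genes of the pathway. Prostate epithelium makes cholesterol as well as taking it up from lipoproteins, and the enlarged prostate is known to accumulate it.

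Each library held between 27590631 and 41301707 counts on genes. The tissue was checked against marker genes of its cell types. The 8 markers of luminal secretory epithelium together held between 111658 CPM (mouse 3 on LO at 32 weeks) and 338866 CPM (mouse 4 on PF at 12 weeks). CPM is the count of a gene per 1000000 counts on all genes of its library, here scaled as described below, so these sums are not plain shares of a library. The most abundant luminal marker was Sbp, a secreted protein of the VP, with a mean of 169765 CPM. None of the 3 seminal vesicle markers passed the filter on low counts, and Svs2, the most abundant of them, had a mean of 0.00699 CPM. Because a few secretory genes take a large share of each library, all CPM were scaled by the trimmed mean of M-values (TMM) unless stated otherwise, which sets the bulk of genes level between libraries. CPM on the plain total count are the alternative, and they moved the median of all genes by 0.17 (log2) from 12 to 32 weeks in LO, by 0.20 in SO and by 0.03 in PF, relative to TMM. In the diet comparisons at 32 weeks the same shift was -0.13 for PF against SO, -0.17 for PF against LO and 0.04 for LO against SO.

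The promoters of 6 of the 8 genes, all those with an entry in the RefSeq table, are shown because 5 of them varied together from mouse to mouse, as described further on, while over all 30 mice Srebf2 did not vary with them. Each is the window from 250 bases before to 50 bases after the RefSeq start site of the gene on build GRCm38.p6. It is read 5′ to 3′ on the strand of the gene. The RefSeq start sites differ from the starts in the gene coordinates given further on, which come from another annotation. The windows are chr15:82147019-82147318 (plus strand) for Srebf2, chr5:28071162-28071461 (plus strand) for Insig1, chr13:119690101-119690400 (plus strand) for Hmgcs1, chr13:8885356-8885655 (plus strand) for Idi1, chr10:76531355-76531654 (plus strand) for Lss and chr5:4104648-4104947 (minus strand) for Cyp51. Capitals mark every match, on either strand, to any of 5 motifs. They are TCACCCCA, the core of the classical sterol regulatory element, the looser TCACNCCA, which contains TCACCCCA, CCAAT, the binding core of NF-Y, GGGCGG, a GC box bound by Sp1, and CACGTG, an E-box.
Srebf2: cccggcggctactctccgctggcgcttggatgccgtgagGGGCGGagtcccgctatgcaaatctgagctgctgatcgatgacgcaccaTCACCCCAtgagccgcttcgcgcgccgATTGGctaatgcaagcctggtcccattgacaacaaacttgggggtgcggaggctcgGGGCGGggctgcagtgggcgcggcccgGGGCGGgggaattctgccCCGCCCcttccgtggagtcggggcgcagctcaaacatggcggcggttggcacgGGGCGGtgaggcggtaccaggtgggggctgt
Insig1: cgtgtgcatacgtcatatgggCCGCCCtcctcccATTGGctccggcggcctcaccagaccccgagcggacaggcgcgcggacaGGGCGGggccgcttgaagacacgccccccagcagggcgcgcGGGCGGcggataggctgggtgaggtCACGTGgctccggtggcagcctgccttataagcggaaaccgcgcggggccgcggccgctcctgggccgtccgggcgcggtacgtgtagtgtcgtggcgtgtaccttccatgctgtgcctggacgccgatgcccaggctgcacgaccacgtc
Hmgcs1: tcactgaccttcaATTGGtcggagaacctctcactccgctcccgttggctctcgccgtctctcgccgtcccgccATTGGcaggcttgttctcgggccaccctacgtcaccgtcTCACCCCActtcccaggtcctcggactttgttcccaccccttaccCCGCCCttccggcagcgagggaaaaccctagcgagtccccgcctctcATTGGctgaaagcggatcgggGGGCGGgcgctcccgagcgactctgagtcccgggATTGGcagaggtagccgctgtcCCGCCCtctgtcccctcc
Idi1: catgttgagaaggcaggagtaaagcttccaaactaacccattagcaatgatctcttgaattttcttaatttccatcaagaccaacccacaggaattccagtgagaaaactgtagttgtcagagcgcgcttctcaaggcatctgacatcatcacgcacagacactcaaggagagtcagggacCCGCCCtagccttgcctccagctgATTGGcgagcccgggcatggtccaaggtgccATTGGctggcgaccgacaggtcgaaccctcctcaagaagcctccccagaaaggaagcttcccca
Lss: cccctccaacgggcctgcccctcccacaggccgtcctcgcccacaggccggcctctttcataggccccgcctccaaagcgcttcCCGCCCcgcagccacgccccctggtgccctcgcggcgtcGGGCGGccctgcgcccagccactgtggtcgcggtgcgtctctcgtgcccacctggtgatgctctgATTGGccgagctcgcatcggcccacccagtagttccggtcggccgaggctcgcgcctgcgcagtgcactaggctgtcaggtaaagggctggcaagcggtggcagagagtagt
Cyp51: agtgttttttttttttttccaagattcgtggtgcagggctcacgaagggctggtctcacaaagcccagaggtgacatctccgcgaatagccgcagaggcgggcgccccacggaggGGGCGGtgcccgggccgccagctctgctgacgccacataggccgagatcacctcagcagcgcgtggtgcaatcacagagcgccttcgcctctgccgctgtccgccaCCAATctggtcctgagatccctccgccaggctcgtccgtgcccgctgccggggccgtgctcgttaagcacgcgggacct
Fdps and Sqle had no promoter entry. TCACCCCA was found in 2 of the 6, and in 1.56% of 32851 mouse promoters of the same length. It began 162 bases before the RefSeq start site in Srebf2 and 137 bases before it in Hmgcs1. TCACNCCA was found in the same 2 genes and in 4.36% of promoters. CCAAT was found in 6 of 6, beside 37.4% of promoters, and GGGCGG in 6 of 6, beside 35.7%. CACGTG was found in 1 of 6, in Insig1, beside 7.15% of promoters. Apart from TCACCCCA within TCACNCCA, no matches overlapped in these windows. The motif letters were chosen after the promoters had been seen, and a match describes the letters only.

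Per length of exon, which allows genes to be compared, Insig1 had the highest level of the 8 with 24.5 CPM per kb over the 30 mice. Srebf2 had 11.5, Fdps 9.96, Cyp51 9.32, Idi1 8.92, Hmgcs1 7.73, Sqle 6.03 and Lss 4.02 CPM per kb. The median of the 16605 genes that passed the filter over all mice was 3.35 CPM per kb, so all 8 lay above it. The lowest count of any of the 8 in any mouse was 674 (Idi1) and the highest 4505 (Srebf2). Between the lowest and the highest of the 30 mice the level differed 1.74-fold for Hmgcs1 and 2.59-fold for Srebf2, with the other 6 genes between these. Within groups the SD of log2 CPM ran from 0.21 (Lss) to 0.34 (Idi1) with a median of 0.28, beside a median of 0.24 over all genes.

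Some exon bases of these genes are shared with neighbouring genes. Cyp51 shares 166 exon bases with Akap9 on the other strand, which had between 4128 and 7640 counts per mouse, and because the strand setting of the counting was not given in the sources used here, reads from the shared bases cannot be assigned to either gene. Exon bases are also shared with Gm48342 (557 bases, Hmgcs1), Gm48574 (323 bases, Idi1) and Gm43738 (1124 bases, Fdps). These predicted genes are not among the identifiers counted, and the shared bases were not analysed here. The antisense gene 4930483K19Rik over Lss had 0 to 3 counts per mouse. Mir33, the microRNA gene inside an intron of Srebf2, had a count of 0 in every mouse. The libraries were made with an mRNA kit, so this count does not measure the mature microRNA.

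**Figure D1:**
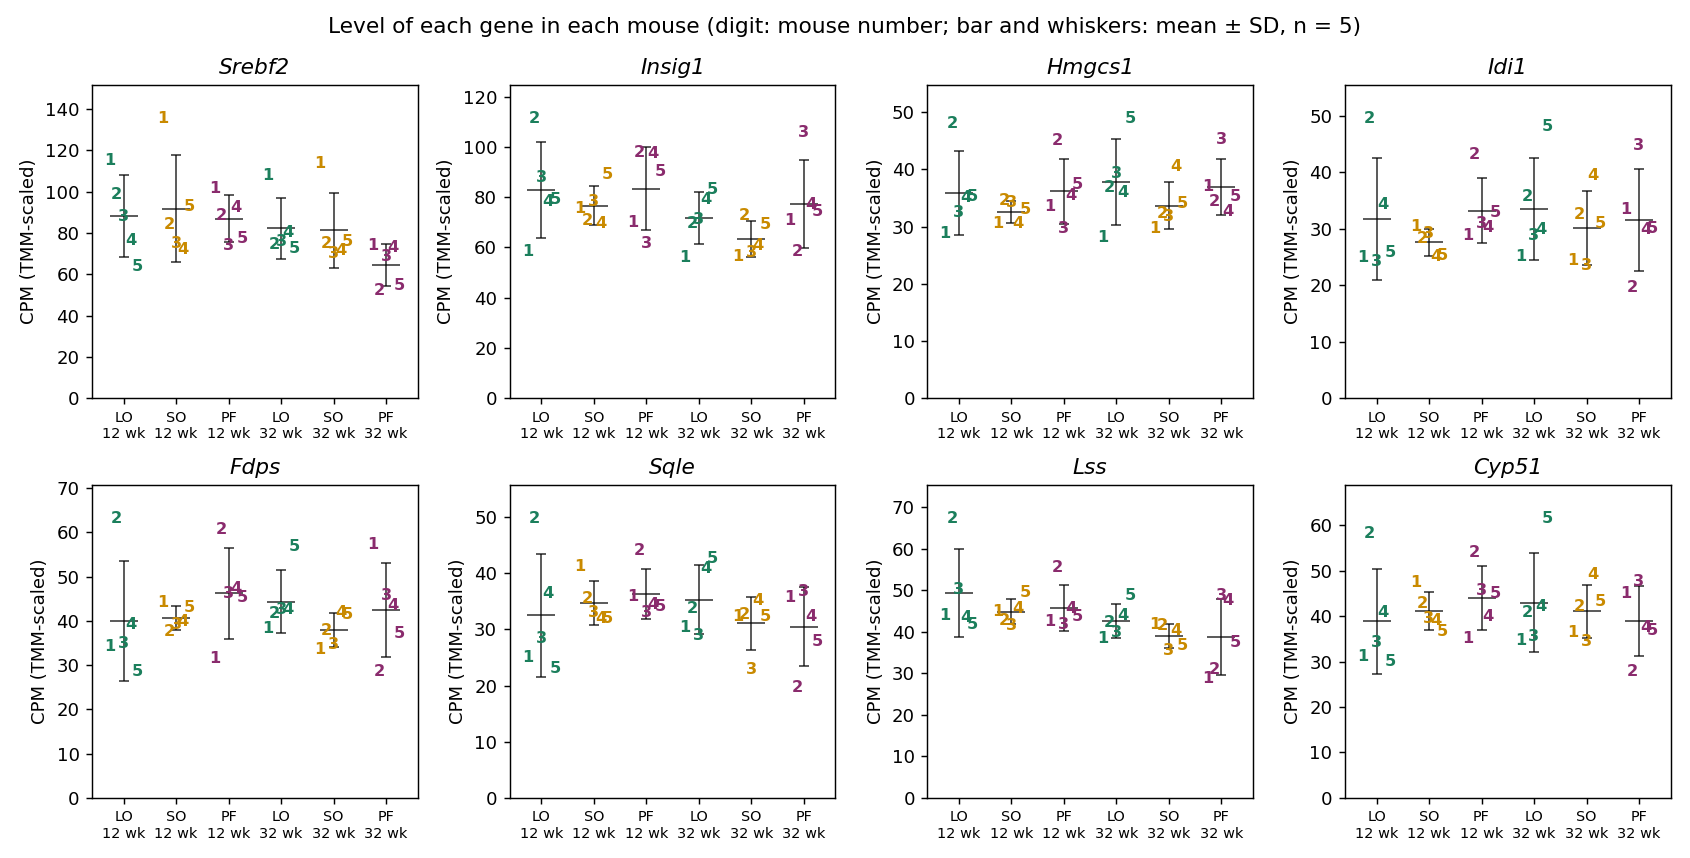
Level of each of the 8 genes in TMM-scaled CPM (vertical axis, starting at 0) in the 6 groups; each digit is 1 mouse, placed at its level and showing its number, and the bar with whiskers is the mean ± SD (n = 5). The groups overlap in most panels, Srebf2 is lowest in PF at 32 weeks (64.5 CPM), and mouse 2 on LO at 12 weeks stands high in 7 of the 8 panels.

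Srebf2 (ENSMUSG00000022463, chr15:82147181-82205379, plus strand on GRCm38) encodes SREBP2 itself. At 12 weeks its level was 115, 98.8, 87.9, 76.3 and 63.8 CPM in the LO mice, 136, 83.9, 74.7, 71.8 and 92.9 CPM in the SO mice, and 102, 88.7, 74.1, 92.4 and 77.3 CPM in the PF mice (mice 1 to 5 in each group). At 32 weeks it was 108, 74.6, 75.7, 80.0 and 72.7 CPM in LO, 114, 74.9, 70.2, 71.5 and 76.0 CPM in SO, and 73.7, 52.3, 68.4, 73.1 and 54.7 CPM in PF. The 5 PF mice at 32 weeks were the lowest set, with mice 2 and 5 lowest of all 30. Their highest value, 73.7 CPM, lay just under the lowest PF value at 12 weeks, 74.1 CPM, but above the lowest mice of LO and SO at 32 weeks. On the total count this turned round, since the PF mice at 32 weeks (50.6 to 71.4 CPM) then lay below all LO (77.6 to 122) and SO (77.4 to 120.1) mice of the same age, and overlapped with the PF mice at 12 weeks (69.7 to 107). The means were 64.5 CPM ± 10.2 (SD, n = 5) in PF at 32 weeks and 86.8 ± 11.3 in PF at 12 weeks. Differences between groups are given as log2 fold changes from edgeR's quasi-likelihood test with their standard error (SE), their 95% confidence interval and a p-value adjusted by the Benjamini-Hochberg method over all genes tested; a gene is called at an adjusted p under 0.05. From 12 to 32 weeks in PF the fold change of Srebf2 was -0.43 (SE 0.173, interval -0.79 to -0.08, unadjusted p = 0.0194) and -0.40 on the total count. Under TMM, though not on the total count, it was the largest of the 8 genes in either direction over all comparisons. Its adjusted p was 0.395 by edgeR and 0.334 by the DESeq2 Wald test. At 32 weeks the fold change was -0.31 for PF against SO (SE 0.162, interval -0.66 to 0.03, edgeR adjusted p = 0.494) and -0.34 for PF against LO (SE 0.162, interval -0.68 to 0.01, edgeR adjusted p = 0.59). These 3 comparisons share the PF mice at 32 weeks. On the total count the 32-week means of PF lay further below the others, at 62.8 CPM beside 86.8 CPM in SO and 90.5 CPM in LO. The order of the group means was SO, LO and PF at 12 weeks and then LO, SO and PF at 32 weeks, and no neighbours in that order differed by more than the larger of their SDs, while the PF means at 12 and 32 weeks lay further apart than either SD. In LO and SO the mean was lower at 32 than at 12 weeks under TMM (82.2 against 88.4 CPM in LO, 81.2 against 91.8 in SO) and higher on the total count (90.5 against 85.8 in LO, 86.8 against 85.8 in SO).

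Insig1 (ENSMUSG00000045294, chr5:28071363-28078662, plus strand) is a target of SREBP2 whose protein retains the factor in the endoplasmic reticulum while sterols are plentiful. At 12 weeks its level was 58.4, 111, 87.6, 78.3 and 79.2 CPM in LO, 75.5, 70.6, 78.1, 69.7 and 89.0 CPM in SO, and 69.8, 97.6, 61.6, 97.2 and 90.4 CPM in PF. The levels at 32 weeks were 55.8, 69.4, 70.9, 79.1 and 83.1 CPM in LO, 56.4, 72.7, 57.8, 60.6 and 69.0 CPM in SO, and 70.7, 58.2, 106, 77.1 and 74.3 CPM in PF. Mouse 3 of the last group and mouse 2 on LO at 12 weeks stood highest, and the SO mice at 32 weeks were on the low side, with all groups overlapping. At 32 weeks the fold change of PF against SO was 0.31 (SE 0.138, interval 0.01 to 0.60, unadjusted p = 0.0426), and the edgeR adjusted p was 0.451 (DESeq2 0.383). It ran from 0.17 without mouse 3 on PF to 0.39 without mouse 2 on PF, and was also 0.17 on the total count, where the means were 75.04 and 67.7 CPM. From 12 to 32 weeks it was -0.27 in SO (SE 0.156, interval -0.59 to 0.05, edgeR adjusted p = 0.341), where the means under TMM, 76.6 ± 7.77 and 63.3 ± 7.20 CPM, differed by more than either SD and those on the total count, 71.4 ± 5.12 and 67.7 ± 6.94, by less, and -0.21 in LO (SE 0.156, edgeR adjusted p = 0.471). The first and second of these share the SO mice at 32 weeks. The group means ran from 83.3 CPM ± 16.6 (PF at 12 weeks) over LO at 12 weeks, PF at 32 weeks, SO at 12 weeks and LO at 32 weeks to 63.3 ± 7.20 (SO at 32 weeks), each step being smaller than the larger SD of the pair.

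Of the enzymes, Hmgcs1 (ENSMUSG00000093930, chr13:119690379-119708260, plus strand) makes HMG-CoA, a precursor of mevalonate. It had the smallest ratio of highest to lowest mouse of the 8, from 28.1 to 48.9 CPM. Its group means were 35.9 CPM ± 7.31 in LO, 32.5 ± 1.97 in SO and 36.2 ± 5.67 in PF at 12 weeks, and 37.8 ± 7.49, 33.6 ± 4.13 and 36.9 ± 4.94 at 32 weeks (SD, n = 5 each). Mouse 5 on LO at 32 weeks (48.9 CPM) and mouse 2 on LO at 12 weeks (48.1 CPM) were highest. Over the 6 diet comparisons and the 3 comparisons of 32 with 12 weeks, its fold change under TMM lay between -0.02 (PF against LO at 32 weeks) and 0.17 (LO against SO at 32 weeks). The range was wider on the total count, where the LO mean was 34.8 CPM at 12 weeks and 41.5 CPM at 32 weeks, and the PF mean 36.1 CPM at 32 weeks.

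Idi1 (ENSMUSG00000058258, chr13:8885501-8892451, plus strand) converts isopentenyl diphosphate to dimethylallyl diphosphate. At 12 weeks its level was 24.8, 49.5, 24.2, 34.2 and 25.8 CPM in LO, 30.3, 28.2, 29.1, 25.1 and 25.2 CPM in SO, and 28.9, 43.2, 30.9, 30.2 and 32.8 CPM in PF. Corresponding levels at 32 weeks were 25.0, 35.7, 28.7, 29.8 and 48.2 CPM in LO, 24.3, 32.6, 23.5, 39.5 and 30.9 CPM in SO, and 33.4, 19.6, 44.7, 29.8 and 30.1 CPM in PF. Single mice stood out on both sides (mouse 2 on LO at 12 weeks high, mouse 2 on PF at 32 weeks low) while all 6 groups overlapped. Under TMM the fold change with the largest value was 0.27 for PF against SO at 12 weeks (SE 0.182, interval -0.11 to 0.66, edgeR adjusted p = 0.911), and the lowest was -0.08 from 12 to 32 weeks in PF. These ends changed on the total count, where the SO means were 25.8 CPM at 12 weeks and 32.3 CPM at 32 weeks. At 32 weeks the total-count means of PF and LO were 30.5 and 36.7 CPM.

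Fdps (ENSMUSG00000059743, chr3:89093588-89101959, minus strand) makes farnesyl diphosphate, where the branches to sterols, dolichol, ubiquinone and prenylated proteins part. Its group means were 40.0 CPM ± 13.5 in LO, 40.7 ± 2.74 in SO and 46.2 ± 10.3 in PF at 12 weeks, and 44.3 ± 7.16, 37.9 ± 3.84 and 42.4 ± 10.7 at 32 weeks (SD, n = 5 each). The lowest and highest mice were again mouse 2 on PF at 32 weeks (28.5 CPM) and mouse 2 on LO at 12 weeks (63.2 CPM). Its fold changes over the same 9 comparisons ran under TMM from -0.13 (32 against 12 weeks in PF) to 0.23 (LO against SO at 32 weeks, SE 0.159, interval -0.11 to 0.57). They ran wider on the total count, with LO means of 38.5 CPM at 12 weeks and 48.6 CPM at 32 weeks and a PF mean of 41.1 CPM at 32 weeks.

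Sqle (ENSMUSG00000022351, chr15:59315077-59331192, plus strand) epoxidises squalene, the first oxygen-dependent step towards sterols. At 12 weeks its level was 25.0, 49.8, 28.4, 36.5 and 23.0 CPM in LO, 41.3, 35.6, 33.0, 31.9 and 32.0 CPM in SO, and 35.9, 44.1, 33.1, 34.4 and 34.1 CPM in PF. By 32 weeks the mice held 30.4, 33.8, 28.9, 40.9 and 42.7 CPM in LO, 32.3, 32.7, 22.9, 35.2 and 32.4 CPM in SO, and 35.8, 19.7, 36.9, 32.3 and 27.9 CPM in PF. The extremes were the same pair of mice as for Fdps, and no group stood clear of another. Its lowest fold change under TMM was -0.25 (32 against 12 weeks in PF) and its highest 0.19 (LO against SO at 32 weeks). Larger ones arose on the total count, where LO had means of 31.4 CPM at 12 weeks and 38.55 CPM at 32 weeks, and PF 29.55 CPM at 32 weeks.

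Lss (ENSMUSG00000033105, chr10:76531588-76557138, plus strand) closes the rings to lanosterol. Its group means were 49.3 CPM ± 10.6 in LO, 44.9 ± 2.98 in SO and 45.7 ± 5.61 in PF at 12 weeks, and 42.6 ± 4.06, 39.1 ± 2.89 and 38.6 ± 9.19 at 32 weeks (SD, n = 5 each). All 3 means were lower at 32 weeks under TMM. The fold change was -0.24 in PF (SE 0.13, interval -0.51 to 0.02, edgeR adjusted p = 0.538) and -0.20 in SO (SE 0.131, interval -0.47 to 0.07, edgeR adjusted p = 0.426), where the 2 means lay further apart than either SD although the mice overlapped. On the total count the means at 32 weeks were 46.7, 41.8 and 37.6 CPM against 47.6, 41.9 and 43.8 CPM at 12 weeks, so that LO and SO were then nearly level.

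Cyp51 (ENSMUSG00000001467, chr5:4081145-4104746, minus strand) removes a methyl group from lanosterol. At 12 weeks its level was 31.1, 58.1, 34.3, 40.8 and 30.1 CPM in LO, 47.4, 42.8, 39.5, 38.9 and 36.6 CPM in SO, and 35.1, 53.9, 45.7, 40.0 and 45.1 CPM in PF. The 32-week mice had 34.7, 40.8, 35.5, 42.1 and 61.5 CPM in LO, 36.4, 42.04, 34.3, 49.2 and 43.3 CPM in SO, and 45.0, 27.8, 47.5, 37.4 and 36.9 CPM in PF. Mouse 2 on PF at 32 weeks was lowest for Cyp51 as for Idi1, and mouse 5 on LO at 32 weeks was highest with mouse 2 on LO at 12 weeks next. Under TMM the 6 means differed by at most 1.13-fold, the smallest spread of the 8 genes, and the fold changes lay between -0.18 (32 against 12 weeks in PF) and 0.18 (PF against LO at 12 weeks). Both were wider on the total count, where the LO means were 37.5 CPM at 12 weeks and 46.9 CPM at 32 weeks, and the PF mean 37.8 CPM at 32 weeks.

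**Figure D2:**
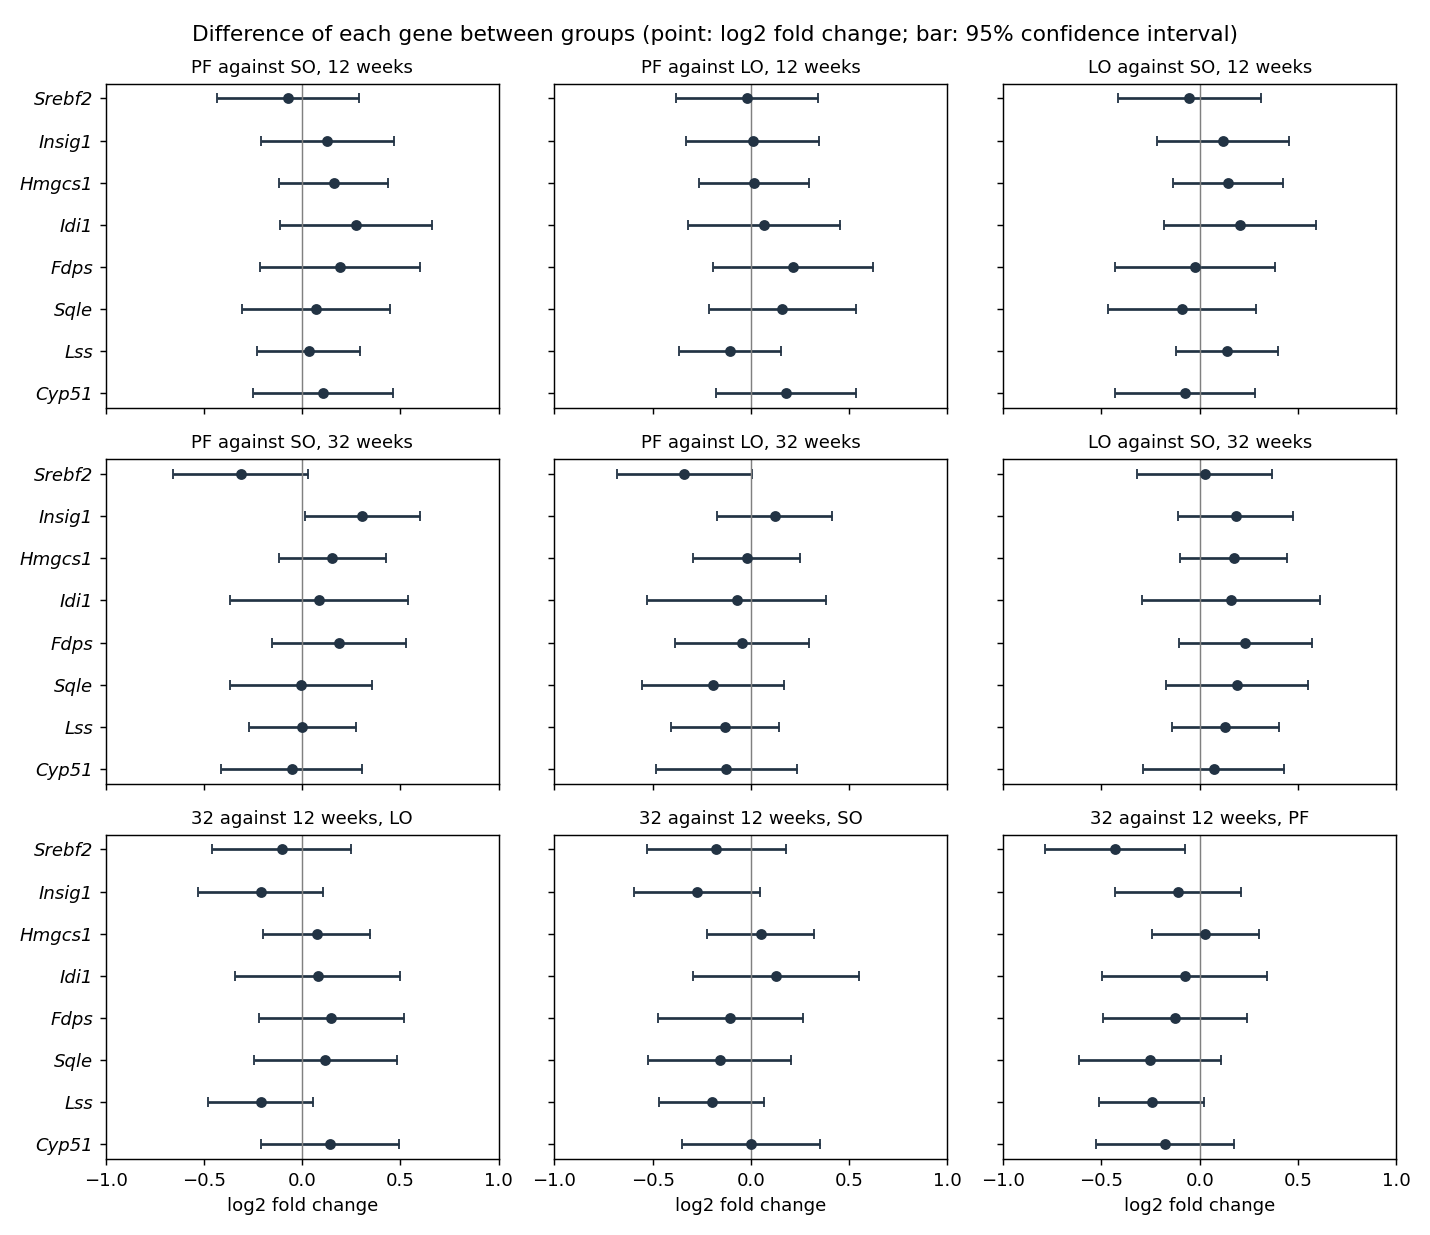
Log2 fold change of each of the 8 genes (horizontal axis) in the 6 diet comparisons and in the 3 comparisons of 32 with 12 weeks; points are fold changes and bars are 95% confidence intervals. All 72 intervals lie between -1 and 1, and 2 of them do not reach 0 (Srebf2 over time in PF, and Insig1 in PF against SO at 32 weeks). The Insig1 fold change was 0.17 without mouse 3 on PF or on the total count, and 0.39 without mouse 2 on PF.

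At 12 weeks the diets were compared in 1 fit of 15 mice, so the comparisons share groups. In PF against SO, 7 of the 8 genes had a fold change above 0, with a median of 0.12 beside -0.02 over all 15873 genes tested (0.15 beside 0.02 on the total count), from -0.07 (Srebf2) to 0.27 (Idi1). edgeR called 0 of the 8, beside 0% of all genes; at an unadjusted p under 0.05 it marked 0 of the 8, beside 7.99% of all genes, and DESeq2 called 0 of the 8, beside 1.31%. Without mouse 5 on PF the edgeR count over all genes was 131 in place of 0, and that of the 8 genes was 0. In PF against LO, 6 of the 8 lay above 0 (4 on the total count), with a median of 0.04 beside -0.00 (0.02 beside -0.02 on the total count), from -0.11 (Lss) to 0.21 (Fdps, SE 0.192, edgeR adjusted p = 0.793). Here edgeR called 0 of the 8 (0% of all genes), marked 0 of the 8 at an unadjusted p under 0.05 (9.24%), and DESeq2 called 0 of the 8 (0.522%). Without mouse 5 on LO, edgeR called 1 gene, not one of the 8. In LO against SO, 4 of the 8 lay above 0 (6 on the total count), with a median of 0.05 beside 0.00 (0.11 beside 0.06 on the total count), from -0.09 (Sqle) to 0.21 (Idi1, SE 0.182, edgeR adjusted p = 0.999). Called by edgeR were 0 of the 8 (0%), at an unadjusted p under 0.05 0 of the 8 (4.28%), and by DESeq2 0 of the 8 (0%).

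At 32 weeks, the comparison of PF with SO had 4 of the 8 genes above 0 (3 on the total count), with a median of 0.04 beside -0.00 over all 16218 genes. On the total count the median of the 8 turned to -0.09 and that of all genes to -0.13. The regulators marked the ends, with Srebf2 at -0.31 and Insig1 at 0.31. edgeR called 0 of the 8 (0% of all genes), marked 1 of the 8, Insig1, at an unadjusted p under 0.05 (10.8%), and DESeq2 called 0 of the 8 (0.726%). Without mouse 2 on PF, edgeR called 1 gene, not one of the 8. PF against LO had 1 of the 8 above 0 (0 on the total count), with a median of -0.10 beside 0.01 over all genes (-0.27 beside -0.16 on the total count), from -0.34 (Srebf2) to 0.12 (Insig1, edgeR adjusted p = 0.85). edgeR called 0 of the 8 (0%), marked 0 of the 8 unadjusted (8.6%), and DESeq2 called 0 of the 8 (0.585%). LO against SO had 8 of the 8 above 0 under both scalings, with a median of 0.17 beside -0.00, from 0.03 (Srebf2) to 0.23 (Fdps, edgeR adjusted p = 1). None of the 8 was called by edgeR (0 of 8, beside 0%) or DESeq2 (0 of 8, beside 0.0234%), and 0 of the 8 passed an unadjusted p under 0.05 (3.48%). As above, each diet group enters 2 of these 3 comparisons.

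The comparisons of 32 with 12 weeks used the 30 mice in 1 fit, and in them age and time on the diet cannot be told apart. In LO, 5 of the 8 genes lay above 0 (6 on the total count), with a median of 0.08 beside -0.01 over all 16605 genes (0.25 beside 0.16 on the total count), from -0.21 (Insig1) to 0.15 (Fdps, SE 0.18, edgeR adjusted p = 0.693). edgeR called 0 of the 8 beside 2.7% of all genes (448 genes, 289 higher and 159 lower), marked 0 of the 8 unadjusted beside 20.5%, and DESeq2 called 0 of the 8 beside 6.56%. In SO, 2 of the 8 lay above 0 under TMM and 6 on the total count, and the median was -0.13 beside -0.00 over all genes under TMM, and 0.07 beside 0.19 on the total count. The ends were Insig1 at -0.27 and Idi1 at 0.13 (SE 0.205, edgeR adjusted p = 0.779). Here edgeR called 0 of the 8 beside 6.46% of all genes (1073 genes, 871 higher and 202 lower), marked 0 of the 8 unadjusted beside 19.7%, and DESeq2 called 0 of the 8 beside 8.03%. In PF, 1 of the 8 lay above 0 under both scalings, Hmgcs1 at 0.03, and the median was -0.15 beside 0.00. edgeR called 0 of the 8 beside 0.0301% of all genes (5 genes, 3 higher and 2 lower), marked 1 of the 8, Srebf2, unadjusted beside 10.2%, and DESeq2 called 0 of the 8 beside 0.295%. The counts over all genes depended on single mice. None of the 8 was called in a refit that left out 1 of the 30, which at these shares says nothing of how stable they are, and 49 of their 96 fold changes over the 12 comparisons changed direction in at least 1 such refit. In LO the count was 101 and 47 genes without mouse 2 or 3 at 12 weeks and 250, 82 and 186 genes without mouse 1, 3 or 5 at 32 weeks, but 714 without mouse 4 at 12 weeks and 1043 without mouse 4 at 32 weeks. In SO it was 673, 514 and 489 genes without mouse 1, 4 or 5 at 12 weeks and 226 without mouse 4 at 32 weeks. In PF it was 0 genes without mouse 1, 2 or 3 at 12 weeks or mouse 3 at 32 weeks, 1 and 2 without mouse 4 or 5 at 12 weeks, and 2 and 3 without mouse 2 or 5 at 32 weeks.

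Whether a diet difference itself changed from 12 to 32 weeks was tested by an interaction term in the same fit. For PF against SO, 1 of the 8 genes lay above 0 (0 on the total count), with a median of -0.07 beside -0.01 over all genes (-0.23 beside -0.17 on the total count), and the ends were Srebf2 (-0.25) and Insig1 (0.16). edgeR called 0 of the 8 (0% of all genes), marked 0 of the 8 unadjusted (9.49%), and DESeq2 called 0 of the 8 (0.224%). Without mouse 5 on PF at 12 weeks, edgeR called 3 genes, none of them among the 8. For PF against LO, 1 of the 8 lay above 0 (0 on the total count), with a median of -0.21 beside 0.00 (-0.36 beside -0.14 on the total count), and the ends were Sqle (-0.37, SE 0.25, interval -0.88 to 0.14, edgeR adjusted p = 0.759) and Insig1 (0.10). edgeR called 0 of the 8 (0%), marked 0 of the 8 unadjusted (7.79%), and DESeq2 called 0 of the 8 (0.0702%). For LO against SO, 6 of the 8 lay above 0, with a median of 0.07 beside -0.01, from -0.05 (Idi1) to 0.28 (Sqle). edgeR called 0 of the 8 (0%), marked 0 of the 8 unadjusted (3.33%), and DESeq2 called 0 of the 8 (0%).

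The intervals say which sizes of difference these 5 mice per group could leave unseen, in fits that took no account of the mouse number. Over the 72 diet and time fold changes the SE ran from 0.123 to 0.213 (median 0.168). All 72 intervals lay within -1 and 1, that is within a doubling or halving, and 46 of the 72 within -0.5 and 0.5. The lowest bound was -0.79 and the highest 0.66, so smaller differences in either direction remain possible. The smallest adjusted p of the 72 was 0.341 by edgeR and 0.334 by DESeq2. For the 24 interaction values the SE ran from 0.184 to 0.29, the intervals from -0.88 to 0.79, and the smallest edgeR adjusted p was 0.759.

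The other 15 enzymes on the way from acetyl-CoA to cholesterol were likewise without a call. All 15 passed the filter, and over the 12 comparisons edgeR and DESeq2 each called 0 of their 180 values, with 3 (of 180) at an unadjusted p under 0.05. Over all genes and the same 12 comparisons, edgeR called 0.779% of 195903 values and marked 9.66% unadjusted, and DESeq2, which filters genes by itself and so has its own base in each share given here, called 1.4% of 228464, which is the background for this list and those that follow. The 3 values were Lbr, a sterol reductase of the nuclear envelope, from 12 to 32 weeks in SO (0.23, edgeR adjusted p = 0.151) and, from 12 to 32 weeks in PF, Dhcr7, which catalyses a last step to cholesterol (-0.38, edgeR adjusted p = 0.438), and Hsd17b7 (-0.34, edgeR adjusted p = 0.449). Their median fold change in PF against SO was 0.04 at 12 weeks and 0.06 at 32 weeks, and over time it was -0.01 in LO, -0.16 in SO and -0.17 in PF. Of the 6 uptake and transport targets and of the 8 genes that escort, retain and cleave SREBPs, edgeR and DESeq2 also called 0, with 3 of 66 and 2 of 96 values at an unadjusted p under 0.05. The same held for the 6 genes of the isoprenoid branches (0 of 72 called by either tool, 9 unadjusted) and the 8 genes of sterol efflux under LXR (0 of 96, 5 unadjusted). Of the 7 genes of sterol esterification and oxysterols, edgeR called 1 of 78 values (7 unadjusted) and DESeq2 called 2. The edgeR call was Soat2, which esterifies cholesterol, from 12 to 32 weeks in SO (1.46, edgeR adjusted p = 0.0494). For Soat2 this call was lost with RLE in place of TMM scaling (edgeR adjusted p = 0.05), without the filter (0.0749), with mice 1 to 4 at 32 weeks (0.081) and without any 1 of the 10 SO mice other than mouse 5 at 12 weeks, where the fold change ran from 1.26 to 1.53. Of the 9 genes of fatty acid synthesis edgeR called 0 of 108 values (10 unadjusted) and DESeq2 called 1, the desaturase gene Scd1 in PF against SO at 32 weeks (1.27, DESeq2 adjusted p = 0.0232, edgeR adjusted p = 0.278).

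Within groups, 7 of the 8 genes varied together from mouse to mouse, and over the 30 mice Srebf2 did not vary with them. To see this apart from diet and time, log2 CPM was centred on the group means, and Pearson's r and Spearman's rho were taken over the 30 mice (n = 30, each point 1 library with its own depth, dissection and cell makeup). Among the 21 pairs without Srebf2, r lay between 0.53 and 0.94 with a median of 0.67, and 21 of the 21 lay above 0.5; rho lay between 0.32 and 0.92 with a median of 0.61. The strongest pair was Idi1 with Cyp51 (r 0.94, rho 0.92), enzymes that act early and late in the pathway. The weakest were Fdps with Lss (r 0.53, rho 0.51) and Hmgcs1 with Lss (r 0.53, rho 0.32). Leaving out the 2 mice farthest from the median of each pair's first gene lowered the median r to 0.53 and left 12 of 21 above 0.5, while Idi1 with Cyp51 stayed at 0.91. Taking out extremes narrows the range and lowers r by itself, so this does not show how many mice carry the pattern. The median was 0.74 in the 12-week mice, 0.69 in the 32-week mice and 0.59 on the total count.

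Over the 30 mice Srebf2 did not share this variation. Its 7 pairs had r between -0.25 (Hmgcs1) and 0.33 (Sqle) with a median of 0.07 (rho 0.09), a median that turned to -0.05 in the 32-week mice and to -0.03 on the total count. Against the mean of the other 7 genes, Srebf2 had r 0.08 (rho 0.19), whereas each enzyme and Insig1 against the mean of its own other 7 had r between 0.69 (Hmgcs1) and 0.89 (Idi1, Sqle and Cyp51). The mice numbered 1 had the highest Srebf2 level in each of the 6 groups, and after this was seen each number in turn was left out of all groups (n = 24, centred anew). In mice 2 to 5, the 7 pairs with Srebf2 had r between 0.32 (Hmgcs1) and 0.78 (Lss) with a median of 0.63 (rho 0.47). Against the mean of the other 7 genes Srebf2 then had r 0.63 (rho 0.60), and the 21 pairs without Srebf2 had a median of 0.76 (rho 0.62). Leaving out number 2, 3, 4 or 5 in place of 1 gave a median of -0.15, 0.01, 0.12 or 0.06 for the pairs with Srebf2 and of 0.47, 0.69, 0.74 or 0.70 for those without, of which the lowest was 0.02 without number 2. Number 1 was singled out by its Srebf2 level, the value correlated here, so the higher r without it describes mice 2 to 5 only. Why mouse 1 stood apart was not tested. Transcript level of Srebf2 is not the amount of cleaved SREBP2, which was not measured here.

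**Figure D3:**
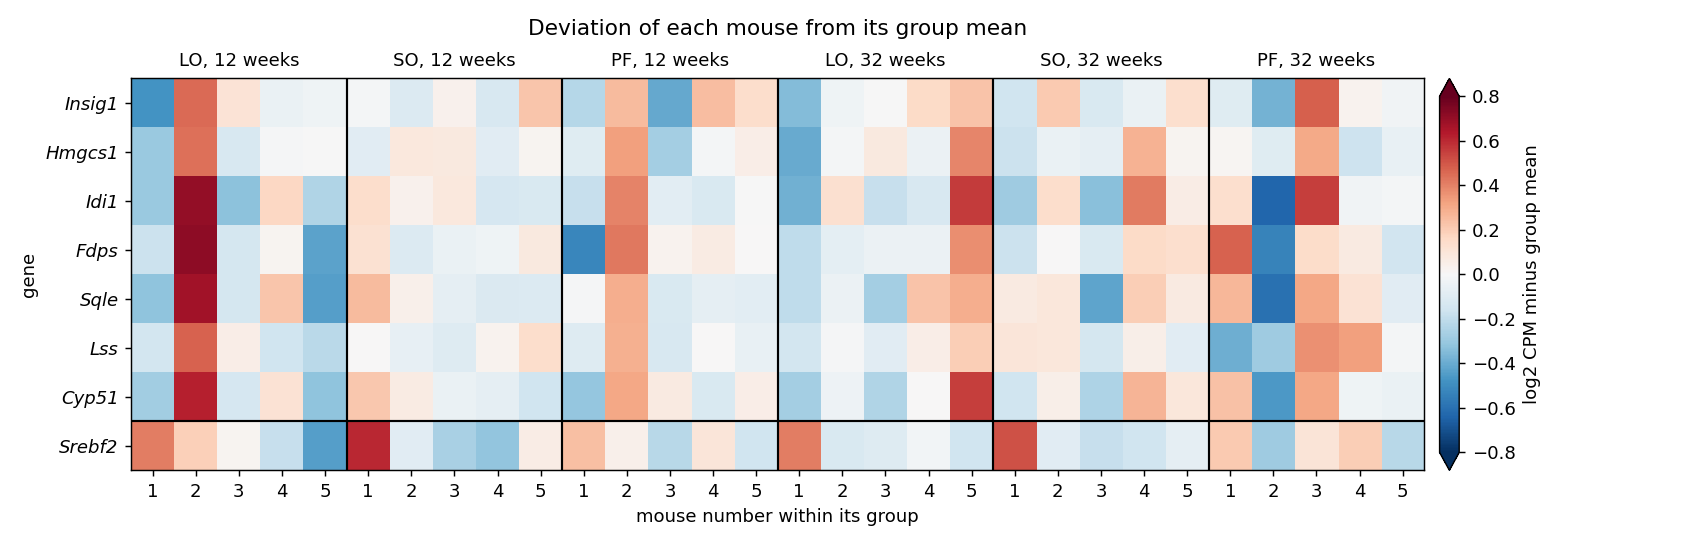
Log2 CPM of each of the 8 genes minus its group mean (colour, from -0.8 in blue to 0.8 in red) in the 30 mice, in columns by group and mouse number. Mouse 2 on LO at 12 weeks is red and mouse 2 on PF at 32 weeks blue in the upper 7 lines, while the Srebf2 line at the bottom is red in mouse 1 of each group.

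The mice at the ends of this variation can be named. Mouse 2 on LO at 12 weeks, mouse 2 on PF at 12 weeks and mouse 5 on LO at 32 weeks each had the highest level of their group in 7 of the 8 genes, all but Srebf2, and mouse 3 on PF at 32 weeks in 6. Mouse 2 on PF at 32 weeks and mouse 1 on LO at 32 weeks had the lowest level in 6. As a mean z-score of the 8 centred genes, mouse 2 on LO at 12 weeks stood at 2.17 and mouse 2 on PF at 32 weeks at -1.61, the extremes of the 30. Srebf2 instead was highest in mouse 1 in 6 of 6 groups, a pattern noticed in the data that 1359 of 16605 genes (8.18%) showed as well. A further 312 genes (1.88%) were lowest in mouse 1 in 6 of 6 groups.

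Genes that varied most like the mean of the 8 were ranked among 14602 other genes with a symbol, leaving out predicted gene models and pseudogenes, first as measured and then centred on group means (n = 30 mice). As measured, the 10 most alike included Msmo1 (r 0.92, rho 0.91), Fdft1 (0.89, 0.89), Lipg (0.80, 0.67), Hsd17b7 (0.77, 0.75), Dhcr7 (0.76, 0.66), Nsdhl (0.74, 0.74), Trit1 (0.74, 0.69) and Stard4 (0.71, 0.71), and 8 of the 10 stood on the lists of cholesterol genes. Centred on group means, the first ranks again went to Msmo1 (r 0.93, rho 0.91), which removes methyl groups from sterols after Cyp51 has acted, and Fdft1 (0.92, 0.86), the squalene synthase just before Sqle. Ssx2ip (r 0.80), Panx1 (0.80) and Pik3r3 (0.80) entered the centred ranks, of which 6 stood on the lists, and 7 genes were common to both rankings. Without mouse 2 on LO at 12 weeks and mouse 2 on PF at 32 weeks, the 2 farthest from the median, r was still 0.89 for Msmo1 and 0.86 for Fdft1 in the centred ranking.

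**Figure D4:**
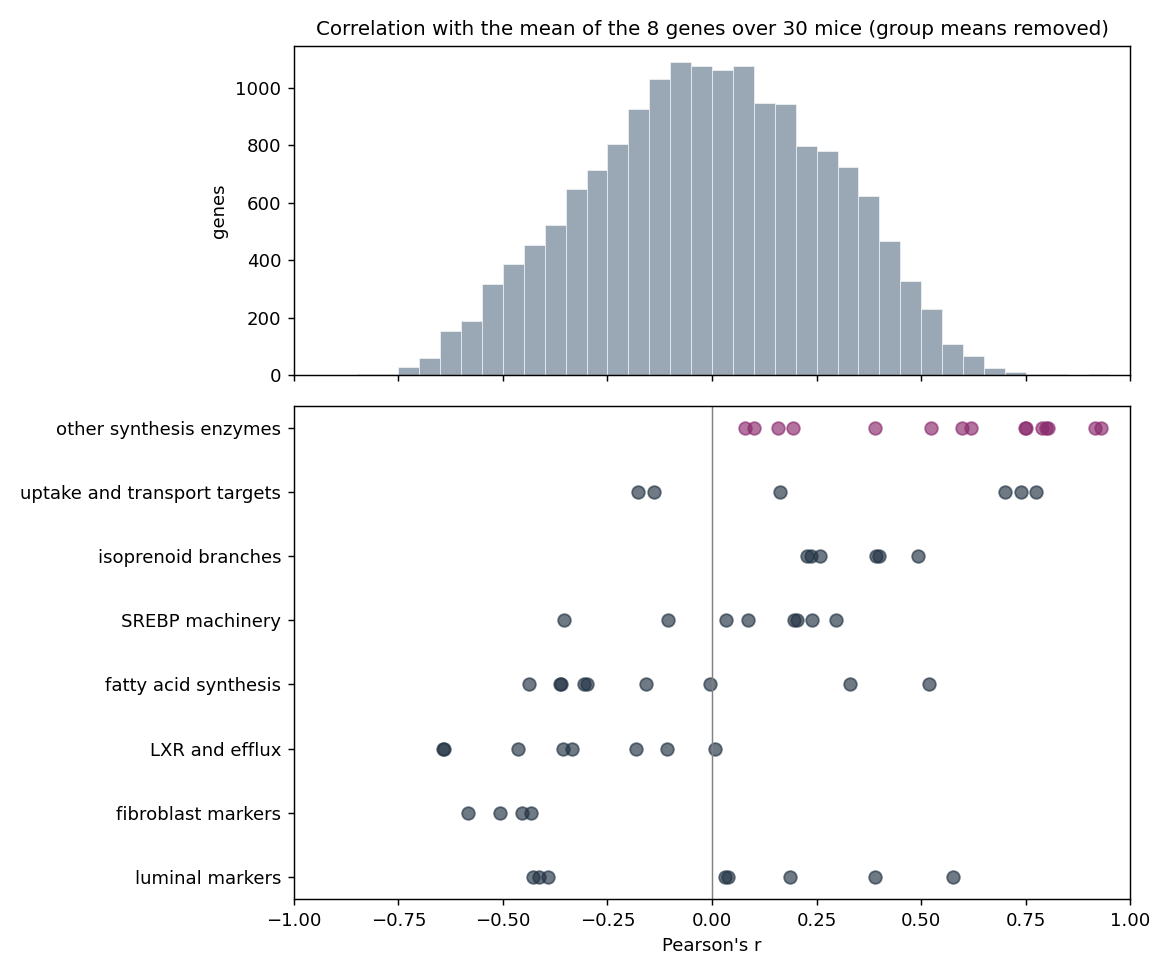
Correlation (Pearson's r, horizontal axis, n = 30 mice, group means removed) with the mean of the 8 genes; the histogram counts the 16597 genes other than the 8, and the dots below are single genes of 8 lists. Of the other synthesis enzymes 10 of 15 lie above 0.5, beside 448 of 16597 genes.

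Of the other 15 synthesis enzymes, 10 (66.7%) had a centred r above 0.5 with the mean of the 8, beside 448 of the 16597 genes other than the 8 (2.7%), and their median was 0.62 beside -0.00 over those genes. The uptake and transport targets had a median of 0.43 with 3 of 6 above 0.5, and the isoprenoid branches a median of 0.33 with 0 of 6. The genes that handle SREBPs had a median of 0.14 with 0 of 8. Below 0 lay the medians of sterol esterification and oxysterols (-0.19, 0 of 7 above 0.5), of fatty acid synthesis (-0.30, 1 of 9) and of LXR and efflux (-0.35, 0 of 8).

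Marker levels of other cell types varied alongside. In bulk tissue, fewer cells of a type and less RNA per cell cannot be told apart. Over the 30 mice the summed level of 4 fibroblast markers, of which 4 passed the filter and Dcn was the most abundant (562 CPM), had r -0.63 (rho -0.63) with the mean of the 8, all centred, and -0.50 without the 2 farthest mice. The fibroblast sum was 735, 397, 512, 586 and 759.8 CPM in LO, 479, 621.5, 494, 659.7 and 583 CPM in SO, and 805, 649.7, 734, 659 and 647 CPM in PF at 12 weeks. In the mice of 32 weeks it was 851, 777, 1217, 584 and 873 CPM in LO, 559.6, 713, 872.5, 770.3 and 564 CPM in SO, and 692, 929, 613, 595.5 and 861 CPM in PF. Mouse 2 on LO at 12 weeks, highest for the cholesterol genes, had the lowest fibroblast sum of the 30, and mouse 2 on PF at 32 weeks the highest of its group. The 8 luminal markers, of which 8 passed the filter, went the other way as a sum (r 0.57, rho 0.52, 0.36 without the 2 farthest mice), although the median r of the single luminal genes was 0.04. The luminal sum was 214085, 326402, 272625, 207199 and 218363 CPM in LO, 261486, 229379, 306937, 284737 and 321266 CPM in SO, and 181809, 248714, 264964, 338866 and 278133 CPM in PF at 12 weeks. The same sum at 32 weeks was 123437, 150160.1, 111658, 202084 and 168003 CPM in LO, 159512, 173468, 147245, 150814 and 166864 CPM in SO, and 233954, 129048, 263347, 298899 and 301404 CPM in PF. The luminal sum of mouse 2 was the highest of the LO group at 12 weeks and the lowest of the PF group at 32 weeks. The part of these cell types in the shared variation of the cholesterol genes was not tested.

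Other cell types gave weaker values. The 2 endothelial markers, with Pecam1 the most abundant (19.8 CPM), had r -0.47 (rho -0.49, -0.27 without the 2 farthest mice), and 2 of 2 passed the filter. Their sum at 12 weeks was 28.7, 21.5, 28.3, 26.6 and 35.9 CPM in LO, 22.8, 27.02, 26.3, 23.1 and 29.8 CPM in SO, and 33.1, 38.5, 41.9, 28.8 and 30.4 CPM in PF. The mice of 32 weeks had 42.7, 27.7, 48.2, 29.7 and 36.4 CPM in LO, 25.2, 28.0, 35.5, 39.3 and 34.5 CPM in SO, and 23.9, 50.4, 31.9, 25.2 and 38.3 CPM in PF, with mouse 2 on PF highest and mouse 2 on LO at 12 weeks lowest of the 30. The 4 smooth muscle markers, 4 of which passed the filter and Acta2 (862 CPM) was the most abundant, had r -0.42 (rho -0.36, -0.41 without the 2 farthest mice). Their sum was 2665, 1815, 2145, 2105 and 2136 CPM in LO, 2127, 2089.6, 1647, 2249 and 2180.0 CPM in SO, and 2458, 1491, 1748, 1829 and 1952 CPM in PF at 12 weeks. It was 2235, 1653, 1865, 1939 and 1419 CPM in LO, 2509.6, 1594, 1719.9, 1623 and 1760.1 CPM in SO, and 1856, 1553, 1679.6, 1315 and 1459 CPM in PF at 32 weeks, where mouse 1 had the most muscle signal in each diet. The 5 adipocyte markers, led by Fabp4 (116 CPM), had r -0.37 (rho -0.30, -0.31 without those mice), and the 5 leukocyte markers, led by Ptprc, r -0.26 (rho -0.32, -0.06). The 3 basal markers had r -0.05. No marker on these lists was at 0 in all mice. With the mean of the 8, total counts on genes had r -0.09 (0.02 in mice 2 to 5), the percent of reads outside annotated genes r -0.29 (-0.45) and the percent not uniquely aligned r -0.31 (-0.18). Srebf2 by itself had r 0.76 over the 30 mice with the sum of the SREBP-handling genes, led by Mbtps1 (361 CPM), which was 0.71 without the 2 mice farthest for Srebf2 (mouse 1 on SO at 12 and at 32 weeks) and 0.58 in mice 2 to 5. Its r with smooth muscle (0.51), LXR and efflux (0.49) and basal markers (0.48) turned to -0.11, -0.30 and 0.11 in mice 2 to 5, while leaving out number 2, 3, 4 or 5 in place of 1 left them between 0.44 and 0.65. With fibroblast markers Srebf2 had r -0.40 and in mice 2 to 5 -0.67, with leukocyte markers -0.45 and -0.48, with endothelial markers -0.43 and -0.55, and with the percent of reads outside annotated genes -0.50 and -0.41. With the sum of the luminal markers it had r 0.05 and in mice 2 to 5 0.53. For the mean of the 8 genes, the r with fibroblast, luminal, endothelial and smooth muscle sums was -0.63, 0.55, -0.50 and -0.40 in mice 2 to 5. The part of these cell types in the level of Srebf2 was not tested.

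Some markers of cell type were called over time, in LO and SO, where edgeR called 2.7% and 6.46% of all genes. From 12 to 32 weeks in SO, 5 of 5 leukocyte markers rose, namely Cd68 (1.22), Adgre1 (1.24), Ptprc (1.85), Cd3e (1.92) and Cd79a (3.01), with edgeR adjusted p between 0.00501 (Ptprc) and 0.0331 (Cd79a). The basal marker Trp63 rose as well (0.44, edgeR adjusted p = 0.0332) and the luminal marker Sbp fell (-0.96, edgeR adjusted p = 0.01). In LO, Sbp fell (-0.81, edgeR adjusted p = 0.041) and the basal markers Krt5 (0.90, edgeR adjusted p = 0.0174) and Trp63 (0.64, edgeR adjusted p = 0.0123) rose. Of these, Ptprc and Sbp in SO and Trp63 in LO were called in 10 of 10 refits that left out 1 of the mice compared. Krt5 was not called without mouse 3 on LO at 12 weeks (0.84), Adgre1 without SO mouse 1 at 12 weeks (1.10) or 4 at 32 weeks (1.17), and Cd3e without SO mouse 4 at 12 weeks (1.69) or 4 at 32 weeks (1.19). Sbp in LO was not called without mouse 2 (-0.66) or 3 (-0.75) at 12 weeks or without mouse 1 (-0.74), 2 (-0.81), 3 (-0.70) or 5 (-0.83) at 32 weeks. Cd79a was not called without any 1 of the 5 SO mice at 12 weeks (2.87 to 3.16) or mouse 4 at 32 weeks (2.03). Cd68 was called only without mouse 1 or 2 on SO at 32 weeks, and in the other refits it ran from 1.07 to 1.29. Trp63 in SO was called only without mouse 2 at 12 weeks or mouse 1 at 32 weeks, and in the other refits it ran from 0.38 to 0.46. With only the LO mice in the fit, edgeR adjusted p for Sbp, Krt5 and Trp63 was 0.0987, 0.0976 and 0.0808, and with only the SO mice that of Cd3e was 0.0554. With mice 1 to 4 at 32 weeks it was 0.0873 for Sbp in LO, 0.0775 for Trp63 in SO and 0.0868 for Cd68. Without the filter it was 0.0977 for Sbp in LO and 0.0574 for Trp63 in SO, and with at least 10 counts in every mouse 0.0603 for Sbp in LO. With the replicate number as a block across both time points, Cd79a stood at 2.51 with an edgeR adjusted p of 0.079.

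Over the 12 comparisons the 8 cholesterol genes gave 96 values, of which edgeR called 0 (2 unadjusted, 0 by DESeq2), beside 0.779% of all values (9.66% unadjusted, 1.4% by DESeq2). It called 2 of 96 luminal values (11 unadjusted, 2 by DESeq2), 3 of 36 basal values (10 unadjusted, 3 by DESeq2) and 5 of 60 leukocyte values (22 unadjusted, 10 by DESeq2). It called 0 of 48 fibroblast values (4 unadjusted, 2 by DESeq2), 0 of 48 smooth muscle values (5 unadjusted, 0 by DESeq2), 0 of 24 endothelial values (5 unadjusted, 0 by DESeq2) and 0 of 60 adipocyte values (3 unadjusted, 0 by DESeq2). Of the clock genes it called 0 of 96 values (22 unadjusted, 6 by DESeq2). Of the endoplasmic reticulum stress genes it called 1 of 96 values (29 unadjusted, 10 by DESeq2), that of Ddit3 from 12 to 32 weeks in LO (-1.77, edgeR adjusted p = 0.0228). Ddit3 was not called without mouse 3 (-1.90) or 5 (-0.95) at 12 weeks or mouse 3 (-1.71) or 5 (-1.70) at 32 weeks, nor with only the LO mice in the fit (edgeR adjusted p = 0.122) or with mice 1 to 4 at 32 weeks (0.0792). The DESeq2 calls included higher levels in PF than in SO at 32 weeks of Hspa5 (0.54, DESeq2 adjusted p = 0.00136), Dnajb9 (0.53, 0.0324) and Xbp1 (0.24, 0.0298). They also included Hspa5 in PF against LO at 32 weeks (0.40, 0.0437) and, in the other direction, Dnajb9 in PF against LO at 12 weeks (-0.53, 0.0452).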

How the data were processed

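The values were the gene counts deposited by the authors, made per the submitters' processing notes with TopHat2 and HTSeq on mouse build GRCm38.p6; TopHat and DESeq2 are also named there, without versions. The libraries were made with a TruSeq Stranded mRNA kit and read paired-end on an Illumina HiSeq, while the annotation release and the strand setting were not given in the sources used here. Each library is 1 mouse. Summary entries that name no gene were left out of library sizes and tests, with 6.67% to 12.2% of the entries of a library outside genes, 0.831% to 1.18% ambiguous and 16.0% to 20.3% not uniquely aligned. Of the 39179 identifiers, 37607 were matched to a symbol. Symbols, exon lengths and overlaps came from the GRCm38 gene annotation, and promoters from RefSeq.

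Counts were tested in edgeR 4.0.16 (R 4.3.3) by the quasi-likelihood test with TMM scaling, its filter on low counts and a Benjamini-Hochberg adjusted p under 0.05. The 15 mice of a time point shared 1 fit for the diet comparisons, and the 30 mice shared 1 fit for time and for the change of a diet difference over time. The test was also run on simulated counts with 200 genes changed, and the outcome is not reported here. Levels are TMM-scaled CPM, and log2 CPM used a prior count of 2. Alternatives were the DESeq2 1.42.0 Wald test, RLE size factors, other filters, a threshold of 0.1, the replicate number as a block, other sets of groups in the fit, mice 1 to 4 at 32 weeks, leaving out each mouse, and CPM on the total count.

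The 8 genes are named in every comparison. From the other gene lists, the rule named every gene called in a comparison and otherwise those with the smallest p. The text gives the genes called by edgeR, some of those called by DESeq2 alone, and the synthesis enzymes with an unadjusted p under 0.05. It summarises the rest, a narrowing made after values were seen. The 10 genes most like the 8 were taken as measured and centred, and most are named. Some genes of the lists and of these rankings enter the counts but are not reported here by name. The 8 genes and the lists were chosen with earlier results of these data known. Predicted genes that overlap the 8 were not analysed here.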

Additional observations from a re-analysis of the deposited data

Results flagged for a closer look

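In 8 of 48 groups (8 genes in 6 groups of 5 mice) the gap between the highest or lowest mouse and the nearest other was large relative to the range of the group (Dixon's test at the 95% level). Chance does so in about 1 in 20 groups, and the 8 are not independent, since the same mice recur. Mouse 1 was apart for Srebf2 at 32 weeks on LO, with 108 CPM and the nearest mouse at 80.0 CPM, and on SO, with 114 CPM against 76.0 CPM. Mouse 2 on PF at 12 weeks was apart for 3 enzymes, with 43.2 CPM of Idi1 (nearest 32.8 CPM), 44.1 CPM of Sqle (nearest 35.9 CPM) and 55.4 CPM of Lss (nearest 45.6 CPM). Mouse 5 on LO at 32 weeks was apart for Fdps, at 56.7 CPM with the nearest at 42.5 CPM, and for Cyp51, at 61.5 CPM with the nearest at 42.1 CPM. Mouse 3 on SO at 32 weeks was low for Sqle, at 22.9 CPM with the nearest at 32.3 CPM.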

How the results depend on the processing

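None of the 8 genes was called in any comparison under any of 255 recomputed counts (edgeR or DESeq2, each alternative and each of 30 refits leaving out 1 mouse). In the main fits edgeR called 0.779% of all values over the 12 comparisons and DESeq2 1.4%. Most edgeR alternatives called 0 of all genes in the diet comparisons. At these shares, the absence of calls says nothing of how stable the 8 genes are. Their fold changes named in the text kept their direction in 685 of 716 recomputations and reversed in 31. This set was chosen after the data were seen: over all 96 fold changes of the 8 genes, 31 of 840 alternatives reversed (16 of them with mice 1 to 4 at 32 weeks), as did 140 of 1200 refits leaving out 1 mouse. Of the 96, 49 reversed in at least 1 such refit, and the largest that reversed was 0.205 in size. Of 288 recomputed changes of other genes, 0 reversed and 63 changed their side of the threshold. Between TMM and the total count, 45 of 48 group means moved by less than 1 SD; those of Hmgcs1 in SO at 12 weeks (to 30.4 CPM) and of Lss in SO at 12 weeks (to 41.9 CPM) and LO at 32 weeks (to 46.7 CPM) moved further. With mice 1 to 4 at 32 weeks, Hmgcs1 in PF against LO turned to 0.109.

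Without 1 mouse, the fold change of Srebf2 ran from -0.146 to 0.102 in PF against SO at 12 weeks and from -0.104 to 0.182 in LO against SO at 32 weeks. At 12 weeks that of Lss ran from -0.189 to 0.037 in PF against LO and from -0.004 to 0.194 in LO against SO, that of Idi1 from -0.018 to 0.289 and that of Sqle from -0.299 to 0.014 in LO against SO. In PF against LO at 32 weeks it was -0.104 to 0.091 for Hmgcs1 and -0.011 to 0.210 for Insig1. Over time in PF it was -0.219 to 0.056 for Idi1, -0.247 to 0.004 for Fdps and -0.040 to 0.131 for Hmgcs1. For the change of a diet difference over time it was -0.042 to 0.201 for Insig1 (PF against LO) and -0.193 to 0.195 for Idi1 (LO against SO). The cause of these reversals was not tested beyond the mouse left out.

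Counts over all genes moved more. Leaving out 1 mouse gave 0 to 131 genes in PF against SO and 0 to 1 in PF against LO at 12 weeks, 0 to 1 in PF against SO at 32 weeks, 47 to 1043 over time in LO, 226 to 1556 in SO and 0 to 7 in PF, and 0 to 3 for the change over time of PF against SO. DESeq2 called 225 (PF against SO) and 75 (PF against LO) genes at 12 weeks, 109, 85 and 6 (LO against SO) at 32 weeks, 1089 over time in LO and 52 in PF, and 44 (PF against SO) and 12 (PF against LO) for the change over time. With all 6 groups in 1 fit, PF against LO gave 2 genes at 12 weeks and 2 at 32 weeks. With only the 2 groups compared, LO against SO at 32 weeks gave 1 gene, time in LO 57 and time in PF 0. An adjusted p under 0.1 gave 1335 genes over time in LO, 1742 in SO and 18 in PF. With mice 1 to 4 at 32 weeks, time in LO gave 121 genes and time in PF 1. Time in PF gave 0 genes with no filter and 2 with at least 10 counts in every mouse. The cause was not tested.

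The labels give the replicate numbers no meaning beyond the number, and the mice were not treated as paired in the main fits. Not every same-numbered pair correlated, but pairing does not require that, so these values did not settle the choice. The SEs, intervals and p-values given for the cholesterol genes come from fits without a replicate block. Their size with such a block is not reported here. The values point to something shared by number all the same: mouse 1 was highest in 6 of 6 groups in 1359 of 16605 genes and lowest in 6 of 6 groups in 312. The cause was not tested. Over 30 pairs of same-numbered mice the mean correlation of deviations was 0.094 (from -0.403 to 0.495, 15 over 0.1), beside -0.0214 over 120 other pairs, and 23 of 60 best matches were with the own number. With the replicate block edgeR called 0 genes in the 6 diet comparisons and the 3 of their change over time. DESeq2 with the block called, in PF against SO, 141 genes at 12 weeks, 206 at 32 weeks and 25 for the change over time. In PF against LO it called 140, 169 and 70, and in LO against SO 12, 19 and 1, where the change of Idi1 turned to 0.002. A block within each time point was not run for 32 against 12 weeks, where it could not be fitted; a block across both time points, added after seeing the data, gave 668 genes in LO, 1224 in SO and 6 in PF. The alternatives for the correlations were also chosen after seeing the data; leaving out mouse 1 of each group moved the median r of the pairs with Srebf2 from 0.07 to 0.63, while leaving out number 2, 3, 4 or 5 gave -0.15, 0.01, 0.12 or 0.06. That of the other pairs, 0.67, went to 0.47 without number 2.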
